A study of Mus musculus with 4 samples.

Results

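The genes described are 9 interferon-stimulated genes and interferon signalling factors: Isg15, Usp18, Ifit1, Ifit3, Ifitm3, Bst2, Stat2, Irf7 and Irf9. They were taken by gene symbol, and each symbol was on 1 of the 15409 gene rows of the deposited files. The RNA came from septal brain tissue of WT mice and of TCRb-/- mice, in which the T cell receptor beta gene is disrupted, so that alpha-beta T cells do not form. All mice of both genotypes were restrained for 30 min on 3 days and killed 1.5 h after the last restraint, and no unstressed mice were analysed here. Each genotype had 2 libraries, replicate 1 from experiment 1 and replicate 2 from experiment 2, and each library pooled the tissue of 4 to 5 mice. RNA was taken from a lysate cleared of nuclei and debris. Strain, sex and age were not among the labels, and p-values measure the spread between these pools rather than between animals.

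Interferons are cytokines released when cells sense nucleic acids of viruses or damaged cells. Type I interferon binds the IFNAR receptor, whose kinases phosphorylate STAT factors, and STAT2 joins IRF9 in the complex ISGF3, which binds the interferon-stimulated response element (ISRE) in the promoters of target genes. Type II interferon, made by T cells and natural killer cells, acts mainly through STAT factors bound at the gamma-activated site (GAS). IRF7 is itself induced and drives further type I interferon. In the brain, microglia, astrocytes, endothelium and the epithelium of the choroid plexus are all known to carry this response.

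Promoters were compared first, because the ISRE is the sequence through which these genes are known to be driven together. The RefSeq promoter table (GRCm38.p6, 250 bases before to 50 after each transcription start) held 8 of the 9 genes and did not hold Usp18. The ISRE core was searched as GAAANNGAAA and the GAS core as TTCNNNGAA, each on both strands and with overlapping matches counted. The ISRE core was in 6 of the 8 genes, against 3.44% of all 32851 windows. The stretches below hold each match in capitals with its flanks (none for Ifitm3), read 5′ to 3′ along the strand of the gene, and show that the letters recur but not their number, strand or distance.
Isg15, chr4:156200850-156200921, minus strand: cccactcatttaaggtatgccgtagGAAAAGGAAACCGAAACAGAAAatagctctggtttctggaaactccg
Ifit1, chr19:34640760-34640838, plus strand: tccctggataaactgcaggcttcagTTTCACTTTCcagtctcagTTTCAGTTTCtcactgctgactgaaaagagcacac
Ifit3, chr19:34583348-34583441, plus strand: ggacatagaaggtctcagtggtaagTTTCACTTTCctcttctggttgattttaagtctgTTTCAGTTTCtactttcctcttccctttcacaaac
Ifitm3, chr7:141010716-141010742, minus strand: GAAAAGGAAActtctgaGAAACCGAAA
Bst2, chr8:71537562-71537627, minus strand: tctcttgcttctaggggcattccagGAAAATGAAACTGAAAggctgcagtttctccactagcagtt
Stat2, chr10:128270251-128270310, plus strand: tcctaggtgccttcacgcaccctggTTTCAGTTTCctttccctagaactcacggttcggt

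Isg15 had 3 overlapping matches, Ifit1, Ifit3, Ifitm3 and Bst2 had 2 each, and Stat2 had 1. Both Ifit genes carried them as TTTCACTTTC followed by TTTCAGTTTC, which is the motif on the other strand. The matches of Ifitm3 began 2 and 19 bases after the start, in the transcribed region, whereas those of the other 5 genes lay upstream of it. No match was found in the window of Irf7 or in either of the 2 windows of Irf9, which says only that these letters are not there. The GAS core was in the windows of Ifitm3 and Bst2, once each, against 8.30% of all windows.

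All 9 genes were read in every library, but several with few reads. Library totals ran from 19988137 to 26210790 reads, so that 1 read was worth 0.038 to 0.050 CPM (reads scaled to a common library total), and 3 reads, the floor taken for a count of 0, were worth 0.114 to 0.150 CPM. The smallest count of the group was 17 reads, for Usp18 in WT replicate 1. Isg15, Usp18, Irf7 and Ifit1 each had at most 58 reads in any library. Trbc2, the constant segment of the missing receptor chain, had 0 and 0 reads in the TCRb-/- libraries and 169 and 86 in the WT libraries, as their labels require. The 10 septal neuron markers summed to between 417 and 458 CPM in the 4 libraries.

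Divided by exon length (GENCODE vM21 gene models, all exons merged), Ifitm3 was by far the most abundant, with a mean of 18.7 CPM per kb and a range over the libraries of 14.1 to 23.2. Bst2 came next at 3.50 CPM per kb (1.61 to 6.04), followed by Ifit3 at 3.14 (2.86 to 3.36), Irf9 at 1.95 (1.52 to 2.18), Stat2 at 1.72 (1.46 to 1.93) and Isg15 at 1.63 (1.35 to 2.32). Ifit1 stood at 0.887 CPM per kb (0.718 to 0.979), Irf7 at 0.455 (0.253 to 0.636) and Usp18 at 0.435 (0.232 to 0.554). The ranges of neighbours in this order overlapped, except that Ifitm3 lay above all others, Ifit3 lay above Irf9, and Ifit1 lay below Isg15 and above Irf7.

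**Figure D1:**
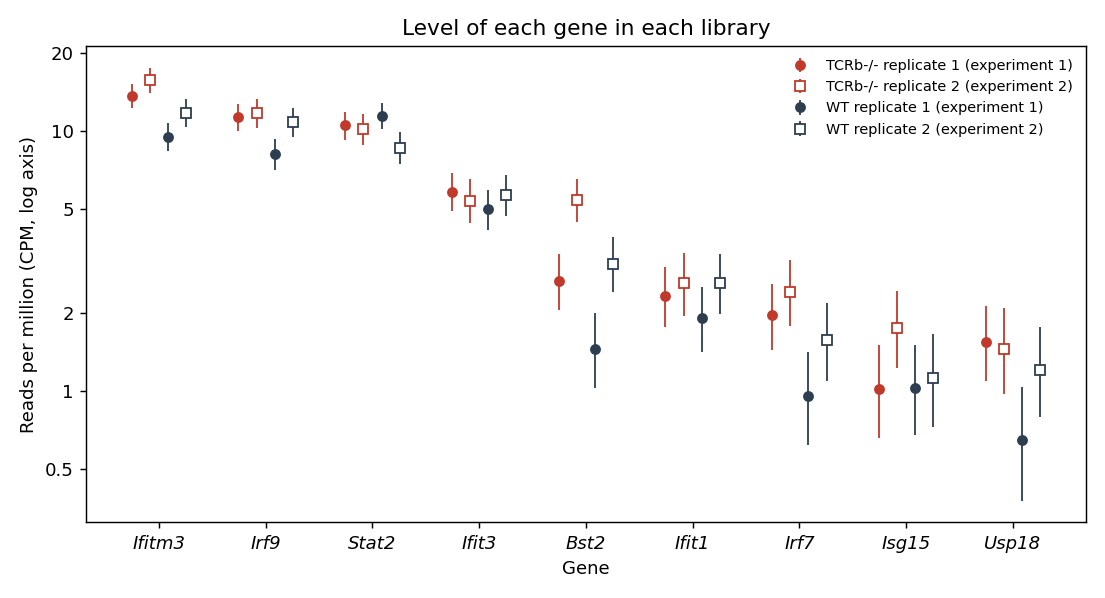
CPM (log axis) of each gene in each library; colours are genotypes, symbols are experiments, and bars are exact 95% intervals of counting error. Ifitm3 runs from 9.54 to 15.8 CPM and Usp18 from 0.649 to 1.55 CPM, and the intervals widen toward the rarer genes on the right.

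No gene of the group changed by genotype at an adjusted p under 0.05. Most values nevertheless lay on the TCRb-/- side: in both experiments 6 of the 9 had the higher level in TCRb-/-, and none was lower in both. Of all 13912 genes tested, 27% were higher in both. Of the 13900 whose symbol was on 1 row, 3405 were lower in both. In 4 genes, Irf7, Irf9, Ifitm3 and Usp18, both TCRb-/- libraries lay above both WT libraries, against 9.76% of all genes. This lean was not confined to the 9 genes: 4 of the 10 astrocyte markers read below were ordered in that way too. The median log2 difference of the 9 genes, on the scale of log2(CPM + 1), was 0.26, with 0.43 in experiment 1 and 0.22 in experiment 2, and the medians over all genes tested were 0.00 in the pooled comparison and 0.01 and 0.00 in the experiments. The median of the 9 was 0.45 without WT replicate 2, 0.18 without WT replicate 1 and 0.13 with a pseudocount of 5 CPM. Summed over the group, the TCRb-/- level was 50.8 CPM in experiment 1 and 56.8 CPM in experiment 2, and the WT level was 40.1 and 46.6 CPM in the same order.

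Differences were tested with limma on log2(CPM + 1), with Benjamini-Hochberg adjustment over all 13912 genes. With genotype as the only term the calls over all genes were 0% of those tested, each of the 9 genes had an adjusted p of 1.00, and none had an unadjusted p under 0.05, as against 43 genes of all tested. Trbc2, with 0 and 0 reads in TCRb-/-, was not called in the genotype-only fit either (limma unadjusted p = 0.000157). A lack of a call in that fit therefore does not show a lack of change. With the experiment as a block, which uses the pairing of the libraries, 0.0144% of all genes were called. These were the 2 genes Trbc2 and Ttr, the latter a choroid plexus marker, and none of the 9. In that fit Ifitm3, Bst2 and Irf7 had unadjusted p below 0.05 and were higher in TCRb-/-, 3 of 9 genes, where 3.16% of all genes were so. Among the cell type markers read further below, all 17 of the choroid plexus and 4 of the 7 ependymal ones tested were so too. None of either list was lower in TCRb-/- at that p. The exact permutation test of 2 against 2 libraries cannot go below p = 0.333. In a whole-tissue sample, fewer cells of a type and less RNA per cell cannot be told apart.

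**Figure D2:**
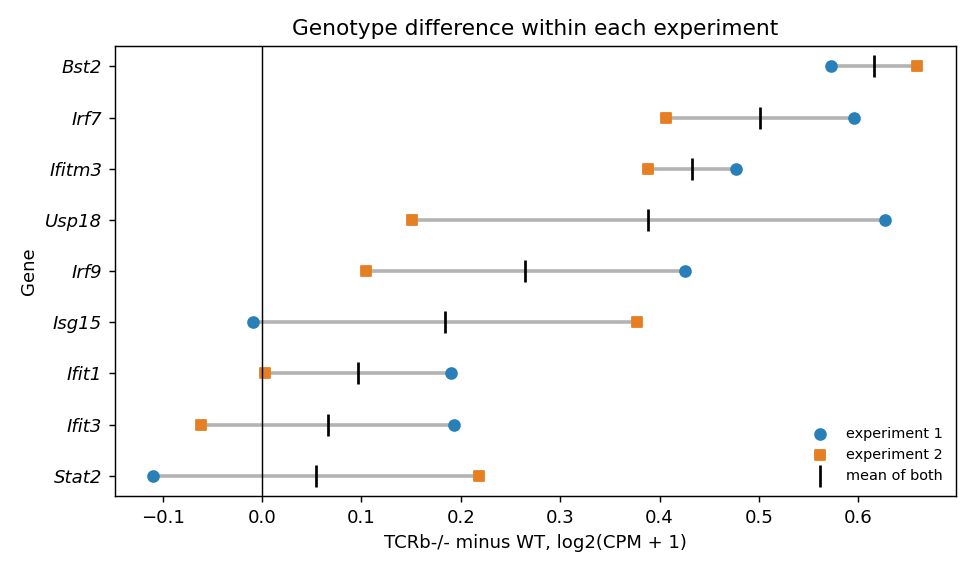
TCRb-/- minus WT on the scale of log2(CPM + 1), with 1 point per gene and experiment and a tick at their mean. Bst2, Irf7 and Ifitm3 are at or above 0.39 in both experiments, whereas Isg15, Ifit3 and Stat2 have points on both sides of 0.

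The factors that carry the signal were Stat2, Irf9 and Irf7. Stat2, the STAT that binds IRF9 (chromosome 10, 128270559 to 128292849, plus strand), had 259 and 204 reads in TCRb-/- replicates 1 and 2, or 10.5 and 10.2 CPM. It had 300 and 193 reads in the WT libraries, or 11.4 and 8.63 CPM. The WT libraries lay on both sides of the TCRb-/- libraries, and WT replicate 1, the highest here, was the lowest for Irf9, Irf7 and Usp18. Stat2 was lower in TCRb-/- in experiment 1 (-0.11) and higher in experiment 2 (0.22), and the pooled log2 difference was 0.05 (SE 0.20, limma adjusted p = 1.00). Without WT replicate 2 it was -0.13.

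Irf9, the DNA-binding subunit of ISGF3 (chromosome 14, 55603571 to 55610030, plus strand), had 278 and 235 reads in TCRb-/- and 214 and 243 in WT. As levels these were 11.3 and 11.8 CPM against 8.16 and 10.9 CPM. Both TCRb-/- libraries were higher than both WT libraries, WT replicate 1 being the low one. The difference was 0.43 in experiment 1 and 0.10 in experiment 2, with a pooled value of 0.26 (SE 0.20, limma adjusted p = 1.00), which was 0.078 without WT replicate 1 and 0.45 without WT replicate 2. The read ratio was 1.38 in experiment 1 (95% interval of counting error 1.15 to 1.66) and 1.08 in experiment 2 (0.90 to 1.3). The exons of Irf9 overlap those of Rnf31, a ubiquitin ligase gene on the same strand, so reads of the shared stretch cannot be assigned to either.

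Irf7, the induced factor that amplifies type I interferon (chromosome 7, 141262706 to 141266481, minus strand), had 48 and 48 reads in TCRb-/- and 25 and 35 in WT. The levels were 1.95 and 2.40 CPM in TCRb-/- and 0.954 and 1.57 CPM in WT. Again the groups did not overlap and WT replicate 1 was lowest. Irf7 differed by 0.60 in experiment 1 and 0.41 in experiment 2, a pooled 0.50 (SE 0.24, limma adjusted p = 1.00). Without WT replicate 1 it was 0.30, and without WT replicate 2 it was 0.70. The unadjusted p was 0.0877 without and 0.0387 with the experiment as a block, where the adjusted p was 0.848. Its read ratio was 2.05 (1.24 to 3.5) in experiment 1 and 1.53 (0.972 to 2.44) in experiment 2, so that counting error alone reached a ratio of 1 in the second.

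Isg15 and Usp18 form the ISG15 system. Isg15 encodes a ubiquitin-like protein that is joined to other proteins during the interferon response (chromosome 4, 156199424 to 156200818, minus strand). It had 25 and 35 reads in TCRb-/- and 27 and 25 in WT, or 1.02 and 1.75 CPM against 1.03 and 1.12 CPM. TCRb-/- replicate 2 stood above the other 3 libraries, which lay close together. The difference was -0.01 in experiment 1 and 0.38 in experiment 2, and the pooled difference was 0.18 (SE 0.25, limma adjusted p = 1.00). Without TCRb-/- replicate 2 the sign turned, to -0.040.

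Usp18 encodes the protease that removes ISG15 and also blocks signalling at the type I receptor (chromosome 6, 121245906 to 121270917, plus strand). Its counts were 38 and 29 reads in TCRb-/- and 17 and 27 in WT, or 1.55 and 1.45 CPM against 0.649 and 1.21 CPM. The groups did not overlap, and the separation came mostly from WT replicate 1. In experiment 1 the read ratio was 2.38 (1.31 to 4.50), and in experiment 2 it was 1.20 (0.687 to 2.11). The pooled log2 difference was 0.39 (SE 0.24, limma adjusted p = 1.00), and 0.18 without WT replicate 1. Its exons overlap a predicted long non-coding gene, Gm44148, on the opposite strand, and those of Irf7 overlap the opposite-strand gene Phrf1. No source names the strand setting of the counting.

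Ifit1 and Ifit3 encode tetratricopeptide proteins that bind foreign RNA and are among the genes most strongly induced by interferon. Ifit1 (chromosome 19, 34640871 to 34650009, plus strand) had 57 and 52 reads in TCRb-/- and 50 and 58 in WT. At 2.32 and 2.60 CPM against 1.91 and 2.59 CPM, the groups overlapped, and the 2 libraries of experiment 2 had nearly the same level. The log2 difference was 0.19 in experiment 1, 0.00 in experiment 2 and 0.10 pooled (SE 0.22, limma adjusted p = 1.00). It was -0.056 without WT replicate 1.

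Ifit3 (chromosome 19, 34583531 to 34588731, plus strand) had 144 and 108 reads in TCRb-/- and 131 and 127 in WT, or 5.86 and 5.40 CPM against 5.00 and 5.68 CPM. The WT libraries held the lowest and the second-highest level. The difference was 0.19 in experiment 1 and -0.06 in experiment 2, with a pooled value of 0.07 (SE 0.19, limma adjusted p = 1.00) and of -0.012 without WT replicate 1. Its value is uncertain, since 51.2% of the 50-base stretches of its exons also occur in another gene, mainly its near-copy Ifit3b, and no source names how shared reads were counted. The share was 7.14% for Ifit1, 10.0% for Ifitm3, 3.96% for Isg15 and 2.78% for Irf9, and 0% for the other 4 genes. Transcripts were searched in their own direction only, so opposite-strand overlaps were not counted in these shares.

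Ifitm3 and Bst2 encode membrane proteins that hold back viruses. IFITM3 blocks the fusion of viruses inside endosomes, and the gene (chromosome 7, 141009586 to 141010770, minus strand) had 336 and 315 reads in TCRb-/- and 250 and 264 in WT. The levels were 13.7 and 15.8 CPM in TCRb-/- and 9.54 and 11.8 CPM in WT, with a mean ± SD of 14.7 ± 1.48 against 10.7 ± 1.60 CPM (n = 2 each). Both TCRb-/- libraries were above both WT libraries, and experiment 2 was the higher of each genotype. The read ratios were 1.43 (1.21 to 1.69) in experiment 1 and 1.33 (1.13 to 1.58) in experiment 2. The pooled log2 difference was 0.43 (SE 0.19), with an unadjusted p of 0.0669 without and 0.00804 with the block and a limma adjusted p of 0.848 with it.

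Bst2, or tetherin, which holds budding virus particles on the cell surface (chromosome 8, 71534255 to 71537456, minus strand), had 65 and 109 reads in TCRb-/- and 38 and 69 in WT. Its levels were 2.64 and 5.45 CPM against 1.45 and 3.09 CPM. The groups overlapped, because WT replicate 2 exceeded TCRb-/- replicate 1, but TCRb-/- was higher within each experiment by a similar amount. The read ratio was 1.82 (1.20 to 2.80) in experiment 1 and 1.77 (1.3 to 2.42) in experiment 2. The pooled difference of 0.62 was the largest of the group (SE 0.39 without the block and 0.18 with it), with an unadjusted p of 0.168 without and 0.00907 with the block and a limma adjusted p of 0.848 with it. It stayed positive with any 1 library left out, from 0.20 without TCRb-/- replicate 2 to 1.03 without TCRb-/- replicate 1.

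Among all 13912 genes, 33 had a larger log2 difference than Bst2, 96 a larger one than Irf7, 174 than Ifitm3, 248 than Usp18 and 717 than Irf9. The other 4 genes were nearer the bulk, with 1411 genes above Isg15, 3070 above Ifit1, 4008 above Ifit3 and 4462 above Stat2.

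**Figure D3:**
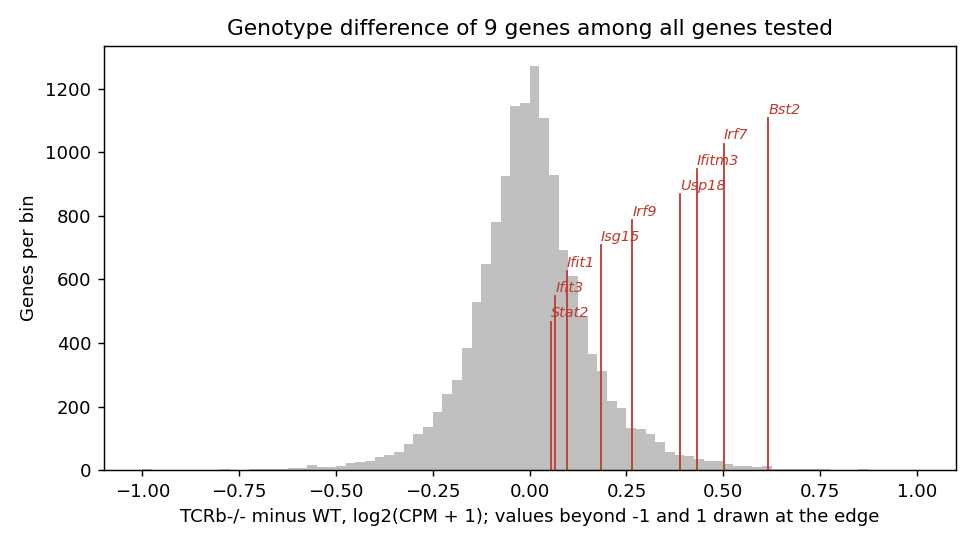
Histogram of the pooled TCRb-/- minus WT difference on the scale of log2(CPM + 1) for all 13912 genes tested, with a line at each of the 9 genes (line heights only separate the labels). All 9 lines lie right of 0, from 0.05 for Stat2 to 0.62 for Bst2.

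The other genes of the pathway came from a list of 111, of which 79 were on a row and 67 passed the filter (1 CPM or more on average). None was called by genotype, without or with the block. Of the 67, 26 were higher in TCRb-/- in both experiments, 4 were lower in both and 37 were opposite, where 27% of all genes were higher in both. Their median log2 difference was 0.10, and it was 0.019 without TCRb-/- replicate 2, 0.15 without TCRb-/- replicate 1 and 0.030 among the genes left by a filter at 10 CPM. None of the 10 interferon ligand genes was on a row, so their levels could not be read. Of the receptor genes 5 were tested, with 4 higher and 1 opposite and a median of 0.12. Ifngr2, a chain of the type II receptor, had 65.1 and 73.1 CPM in TCRb-/- and 60.4 and 66.5 CPM in WT, and the other chain, Ifngr1, differed by 0.11. Ifnar1 of the type I receptor differed by 0.18 in experiment 1 and -0.13 in experiment 2.

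All 8 kinases and other STATs differed in opposite directions between the experiments. Over all genes tested whose symbol was on 1 row, 6737 of 13900 did so. Jak1, a kinase of both receptor types, had 98.6 and 126 CPM in TCRb-/- and 116 and 117 CPM in WT. Stat3 and Stat5b, which serve other cytokines, stood at -0.04 and 0.03 pooled.

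Of the 5 other interferon regulatory factors, 1 was higher in both experiments and 1 lower. The lower one was Irf3, the factor first activated by nucleic acid sensing, with 12.5 and 14.5 CPM in TCRb-/- and 14.6 and 15.5 CPM in WT, differing by -0.15. Irf2 and Irf5 stood at -0.02 and 0.19. Of the 8 tested genes of nucleic acid sensing, 3 were higher in both and 5 opposite, with Mavs, the mitochondrial adaptor, at 0.07 and 0.16 in the experiments. Tlr3, a receptor of double-stranded RNA, stood at 0.20 pooled and Tbk1, a kinase that activates IRF3, at -0.12. The negative regulators had 3 higher and 3 opposite of 6, and Ptpn11, Pias1 and Ptpn2 stood at -0.0035, 0.01 and 0.09 pooled.

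The largest group was that of 35 other interferon-stimulated genes tested, with 15 higher in both experiments, 3 lower and 17 opposite and a median of 0.11. Ifi27, a small interferon-induced gene, had 53.4 and 82.4 CPM in TCRb-/- and 44.8 and 61.9 CPM in WT, and differed by 0.33. Shisa5 stood at 0.06 and Adar, an RNA-editing enzyme, at -0.10. Lgals3bp, Gbp2 and Ifitm1 were chosen after their values were seen. Lgals3bp, a secreted galectin-binding protein, had 25.1 and 43.9 CPM against 19.6 and 31.5 CPM, a difference of 0.40. Gbp2, a guanylate-binding protein, had 63 and 32 reads against 41 and 20, a difference of 0.47. With the block, Ifi27, Lgals3bp and Gbp2 were the 3 of the 67 pathway genes with an unadjusted p under 0.05, all higher in TCRb-/-, a share near the 3.16% of all genes that were so. Ifitm1, a paralogue of Ifitm3, went the other way, with 26 and 18 reads in TCRb-/- and 42 and 34 in WT and a log2 difference of -0.37.

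The experiments were compared next, because each genotype had 1 library in each. No gene of the 9 was called between experiments with experiment as the only term, where 23.7% of all genes were. With genotype as a second term Bst2 was called as higher in experiment 2 (log2 difference 0.78, limma adjusted p = 0.0184, as against 0.0755 without that term), and 9.29% of all genes were called in that direction. With experiment as the only term and 1 library left out, its difference ran from 0.45 (limma adjusted p = 0.268, without TCRb-/- replicate 2) to 1.11 (limma adjusted p = 0.00445, without WT replicate 2). It was 0.49 without WT replicate 1. Bst2 was higher in experiment 2 by 0.82 in TCRb-/- and by 0.74 in WT, so its difference between experiments exceeded its difference between genotypes. The other differences between experiments were 0.30 for Irf7, 0.25 for Isg15, 0.24 for Ifitm3, 0.21 for Ifit1, 0.21 for Irf9, 0.18 for Usp18 and 0.03 for Ifit3, with limma adjusted p from 0.378 to 0.910. Of these, Usp18, Ifit3, Ifitm3 and Irf9 were at or below 0 without WT replicate 1, at -0.13, -0.068, -0.0015 and -0.00032. Stat2 alone of the 9 had a negative mean, at -0.21, with -0.04 in TCRb-/- and -0.37 in WT. Over the 9 genes the median was 0.21, and over all genes tested it was -0.03. From the pathway list, Shisa5, Ifi27 and Lgals3bp were called higher in experiment 2, and Ifnar1, Stat3, Jak2, Tyk2, Adar and Znfx1 lower, both without and with genotype as a term. Ifi35 was called higher without that term (limma adjusted p = 0.0494) and not with it (0.0528). Of the 67 pathway genes tested, 4 were thus called higher and 6 lower without the term, and 3 and 6 with it. Of the 13900 genes tested whose symbol was on 1 row, 1245 and 2047 were called without it, and 1292 and 2145 with it.

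Marker lists of cell types that respond to interferon or border the septum were read beside these values. The 17 choroid plexus markers summed to 2196 and 7012 CPM in TCRb-/- and to 1343 and 4265 CPM in WT, higher in experiment 2 and, within each experiment, higher in TCRb-/-. All 17 were higher in TCRb-/- in both experiments, with a median of 0.58, where 27% of all genes were higher in both. With genotype as a second term 17 were called higher in experiment 2, against 9.29% of all genes. Without that term 15 were, against 1245 of the 13900 genes tested whose symbol was on 1 row. The order of the libraries by this sum was also the order of Bst2: TCRb-/- replicate 2, WT replicate 2, TCRb-/- replicate 1, WT replicate 1. Ifit1 had this order too, with nearly equal levels in the libraries of experiment 2. Of the pathway genes named above, Ifngr2, Mavs, Ptpn2, Ifi27, Lgals3bp and Shisa5 also had it. Ependymal markers had the same order of libraries, with 176 and 216 CPM in TCRb-/- and 135 and 195 CPM in WT. The sum of the meningeal markers, given below, had that order as well, with WT replicate 2 and TCRb-/- replicate 1 nearly equal. The part of these cells in the values of the 9 genes was not tested.

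The 14 listed microglia and macrophage markers summed to 222 and 223 CPM in TCRb-/- and 219 and 214 CPM in WT, with a median difference of 0.00. Endothelial markers stood at 80.4 and 81 CPM against 77.1 and 69.2 CPM, astrocyte markers at 2827 and 2793 CPM against 2574 and 2606 CPM, and meningeal markers at 55.7 and 71.4 CPM against 52.9 and 56.0 CPM. Tested markers higher in TCRb-/- in both experiments were 7 of 10 for astrocytes, 5 of 7 for endothelium and 6 of 7 for ependyma. They were 5 of 12 for microglia and macrophages and 1 of 9 for meninges. Lower in both were 1 astrocyte marker and 1 microglia and macrophage marker. Striatal neuron markers ran from 960 CPM in TCRb-/- replicate 2 to 4408 CPM in TCRb-/- replicate 1, and cortical and hippocampal markers from 140 CPM in TCRb-/- replicate 2 to 483 CPM in WT replicate 1. These sums also separated libraries of the same genotype, and their part in the result was not tested. Among the listed markers Trbc2 alone was at 0, in both TCRb-/- libraries.

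**Figure D4:**
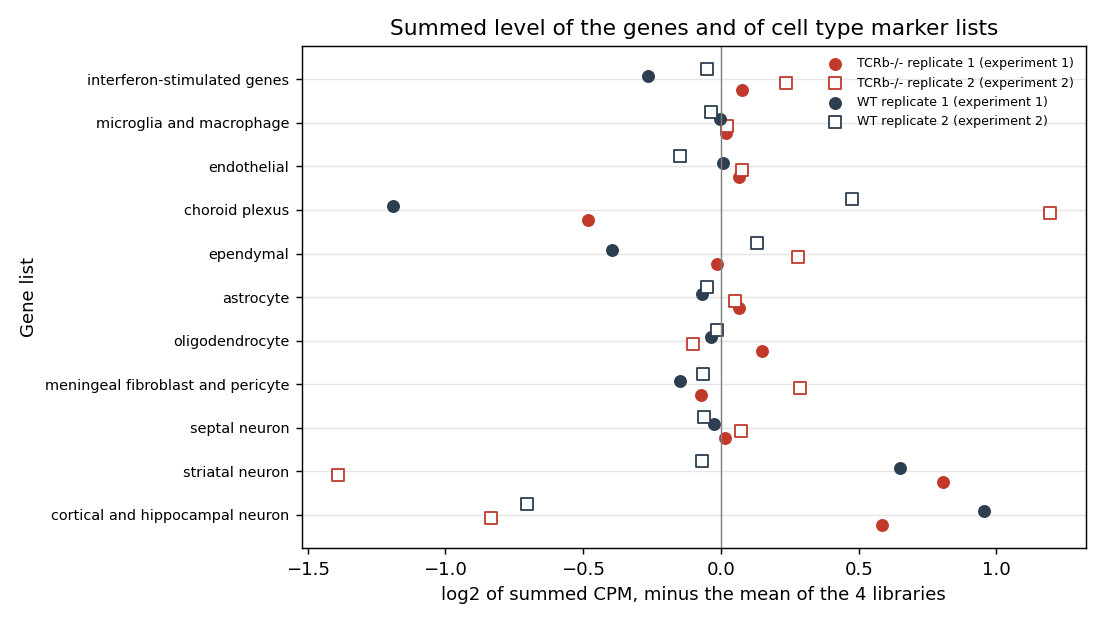
Log2 of the summed CPM of the 9 genes and of each marker list, minus the mean of the 4 libraries; colours are genotypes and symbols are experiments. The 9 genes run from -0.26 in WT replicate 1 to 0.24 in TCRb-/- replicate 2, and the choroid plexus list from -1.19 to 1.19 in the same libraries.

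The 9 genes did not share 1 profile. Centred on their own mean, their average log2(CPM + 1) was 0.05 and 0.24 in TCRb-/- replicates 1 and 2 and -0.28 and -0.01 in WT replicates 1 and 2. Irf9 lay nearest to that average, at a Euclidean distance of 0.12 over the 4 libraries, then Ifitm3 at 0.14 and Ifit1 at 0.20. Stat2 at 0.53 and Bst2 at 0.65 lay farthest, Stat2 being highest in WT replicate 1 and Bst2 having the widest spread between experiments. Of the 9812 other genes at 10 CPM or more on average, the 5 nearest to the average were Sqrdl (0.04), Pcyox1l (0.05), Ehbp1 (0.06), Mt2 (0.06) and Nme6 (0.07). With 4 libraries many genes can come this close, and the list describes these libraries only.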

How the data were processed

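Septal RNA was measured in 4 libraries. Each library had its own deposited file of symbols and log2 values, per the file headers. Worked back from the values, the quantity under the log2 was CPM, reads over the library total, where the reads had been raised by 0.5 and the total by 1. Whole reads were recovered for 100% of the values (tolerance 0.001 reads). The submitters' processing notes name HISAT2 2.1.0, SAMtools 1.3, HTSeq 0.9.1, R 4.0.5, limma 3.46.0 and the build mm10, and give no settings. The rarest row listed reached 10 reads in its best library, so rarer genes could not be read.

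The 15426 rows held 17 ERCC spike-ins, left out of the tests, and 12 rows that shared a symbol. In experiment 1 the totals were 24585868 reads for TCRb-/- and 26210790 for WT, and in experiment 2 they were 19988137 and 22358674. The CPM were transformed to log2(CPM + 1), which understates differences of low genes, and genes averaging 1 CPM or more were kept. Tests between genotypes, and separately between experiments, used limma 3.58.1 under R 4.3.3 (empirical Bayes with a trend, two-sided, Benjamini-Hochberg over all 13912 genes, threshold 0.05), checked on simulated data. The data simulated for genotype held no difference between experiments, unlike these libraries. The check therefore does not show what the genotype test could call here. Intervals of a level are exact Clopper-Pearson and those of a ratio are from the exact conditional binomial, both at 95%, and cover counting error only, since amplified reads are not independent molecules. The labels give the replicate number as the experiment, so the numbers pair the libraries, and deviations from the genotype mean of same-numbered libraries correlated at 0.72 across genes. Alternatives were the experiment as a block, voom, no trend, other scalings, each library left out, the filter dropped or set at 10 CPM, and pseudocounts of 0.1 and 5.

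The other steps used scipy 1.17.1, pandas 2.3.3, numpy 2.4.6 and matplotlib 3.10.9 in Python 3.11.15. The 9 genes, the pathway and marker lists and the tests were chosen with earlier results of these data known. All 9 genes are given, and of the pathway list the 3 genes with the highest mean CPM in each role group were to be named. Other genes were chosen after their values were seen.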

Additional observations from a re-analysis of the deposited data

Results flagged for a closer look

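In each of the following genes the TCRb-/- pool was above the WT pool in one experiment and below it in the other; the difference between the experiments was not tested, and each arm is 1 pool. On the scale of log2(CPM + 1), the genotype difference in experiment 2 minus that in experiment 1 was 0.39 for Isg15, from -0.01 to 0.38. It was -0.25 for Ifit3, from 0.19 to -0.06, and 0.33 for Stat2, from -0.11 to 0.22.

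Among the other named pathway genes the same quantity was -0.30 for the receptor gene Ifnar1, 0.34 for Jak1, 0.15 for Stat3 and 0.15 for Stat5b. The regulatory factors Irf2 and Irf5 stood at 0.13 and 0.44, and the kinase gene Tbk1 at 0.32. The negative regulators Pias1 and Ptpn11 stood at 0.030 and -0.088. Of the 12 genes named here, 3 belong to the 9 interferon genes described above.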

How the results depend on the processing

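With all 4 libraries, the 9 genes kept their direction and their side of the threshold by genotype in 120 of 120 combinations of gene and alternative, and so did the named pathway genes in 290 of 290. Between experiments 115 of 120 did, and the other 5 were the call of Bst2 with genotype as a term. Changing the filter, dropping the trend or adding the second term leaves each difference itself unchanged with 4 libraries. The direction was therefore fixed in advance in those alternatives, and only the p-value could move. The count of all genes called by genotype, 0 without the replicate block, was 2 with it. Added to the block, dropping the filter gave 1, and a pseudocount of 0.1, voom and quantile normalization gave 2 each. The cause was not tested. Leaving out 1 library gave 0 to 38 calls, 38 without TCRb-/- replicate 1. Between experiments 3292 genes were called, 629 without the trend, and with 1 library left out 1379 to 3395 (1379 without TCRb-/- replicate 1, 1797 without TCRb-/- replicate 2, 1680 without WT replicate 1).

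With 1 library left out, the lone library of its genotype is assumed to vary like the other pair. The genotype difference then ran from -0.040 to 0.41 for Isg15, -0.056 to 0.25 for Ifit1, -0.012 to 0.14 for Ifit3 and -0.13 to 0.24 for Stat2. Between experiments it ran from -0.13 to 0.50 for Usp18, -0.068 to 0.12 for Ifit3, -0.0015 to 0.48 for Ifitm3 and -0.00032 to 0.43 for Irf9. In the pathway list the genotype difference ran from -0.25 to 0.30 for Ifnar1, -0.23 to 0.11 for Jak1, -0.25 to 0.16 for Stat3, -0.063 to 0.12 for Stat5b, -0.12 to 0.076 for Irf2, -0.16 to 0.54 for Irf5, -0.0058 to 0.24 for Mavs, -0.014 to 0.40 for Tlr3, -0.073 to 0.066 for Ptpn11, -0.057 to 0.073 for Pias1, -0.12 to 0.23 for Shisa5 and -0.27 to 0.070 for Adar. The count of the 9 genes with all TCRb-/- libraries above all WT libraries, 4 with all libraries, was 5 to 7 with 1 left out (7 without TCRb-/- replicate 1 or WT replicate 2), where 26.6% to 34.1% of all genes did so because fewer libraries must be ordered.

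The pseudocount sets the scale of the rarer genes: with 0.1 and 5 CPM the genotype difference was 0.69 and 0.13 for Usp18 and 0.77 and 0.20 for Irf7. Few reads limit Isg15, Usp18, Irf7 and Ifit1. A filter at 10 CPM kept only Ifitm3, Stat2 and Irf9 of the 9 genes.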
